A study of Homo sapiens with 132 samples.

Results

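TERT and DKC1, which encode the catalytic protein of telomerase and the pseudouridine synthase dyskerin that holds the telomerase RNA, were followed together with TERF1, TERF2, TERF2IP, POT1, TINF2 and ACD, which encode the 6 proteins of shelterin. These 8 genes were taken by symbol, through their Ensembl identifiers, from the 65217 gene identifiers counted in every library. RNA sequencing had been performed on 132 libraries of poly(A) RNA from 4 established gastric cancer cell lines, with 3 replicates for each of 44 conditions. MKN1 and Hs746T cells (42 libraries each) were untreated or received EGF (5 ng/ml), the EGFR antibody cetuximab (Cet, 1 µg/ml), EGF+Cet, the HER2 antibody trastuzumab (Tra, 5 µg/ml), the irreversible ERBB kinase inhibitor afatinib (Afa, 0.5 µM) or Tra+Afa. MKN7 and N87 (NCI-N87) cells (24 libraries each) were untreated or received Tra, Afa or Tra+Afa. Every condition was sampled after 4 h and 24 h. MKN1, MKN7 and N87 cells were kept in RPMI and Hs746T cells in DMEM, and afatinib was set against untreated cells. The paper names DMSO as the solvent control of afatinib, and no DMSO library is among these samples. Afatinib and its solvent therefore cannot be told apart here. Each line stands for 1 tumour, and the labels do not say whether replicates were separate cultures, so p-values measure the spread between these samples only. Within a line and time point every treatment shares its 3 untreated libraries with the others.

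Total counts per library ranged from 25832557 to 69434151 with a median of 50725775.5. ERBB2, the gene of HER2, lay between 10800 and 22100 CPM (counts scaled to the size of the library) in N87, between 3680 and 7330 CPM in MKN7 and at most at 182 CPM in MKN1 and Hs746T. The receptor gene MET lay between 3280 and 5680 CPM in Hs746T and at most at 369 CPM in the other lines. The epithelial markers went with the labels in MKN7 and N87, where CDH1 (E-cadherin) lay between 184 and 344 CPM. CDH1 stayed at or below 6.04 CPM in MKN1 and Hs746T, and EPCAM at or below 39.5 CPM there against at least 244 CPM in MKN7 and N87. The keratin markers split these lines, since KRT8 and KRT18 had their highest medians in MKN1 (11100 and 2980 CPM) and their lowest in Hs746T (342 and 150 CPM), and KRT19 had medians of 4170 and 26.4 CPM there. Of the mesenchymal markers, VIM had medians of 1600 CPM in Hs746T and 559 CPM in MKN1 against at most 4.17 CPM in MKN7 and N87, ZEB1 57.2 and 34.9 CPM against at most 8.28 CPM, and FN1 between 237 CPM (N87) and 2090 CPM (Hs746T), while CDH2 was high in Hs746T alone (79.8 CPM against at most 0.657 CPM). In bulk RNA, fewer cells of one kind and less RNA per cell cannot be told apart.

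Telomeres are the repeat-bearing ends of chromosomes, and they shorten with each round of replication unless the repeats are added back. Telomerase adds them with the reverse transcriptase TERT, which copies a template in the RNA subunit TERC. Dyskerin, together with NHP2, NOP10 and GAR1, binds TERC and also takes part in pseudouridylation of ribosomal RNA as part of box H/ACA particles. TERT is silent in most adult somatic cells and is expressed in most cancers, while DKC1 and the shelterin genes are expressed in nearly all cells. Shelterin covers the repeats: TERF1 and TERF2 bind double-stranded repeats, TERF2IP (RAP1) binds TERF2, POT1 binds the single-stranded overhang, ACD (TPP1) joins POT1 to the complex and recruits telomerase, and TINF2 (TIN2) bridges TERF1, TERF2 and ACD.

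The start-site sequences of TERT and DKC1 are shown because these are the members whose RNA moved most with treatment. RefSeq promoter windows (GRCh38.p14) were matched for 6 of the 8 members, in 7 entries of 300 bases, 250 before and 50 after the start. Capitals mark matches, on either strand, to CACGTG (the E-box letters bound by MYC and MAX) or GGGCGG (the GC box letters bound by Sp1), and the 250 bases before each start are printed on the strand of the gene.
TERT, chr5:1295069-1295318, minus strand: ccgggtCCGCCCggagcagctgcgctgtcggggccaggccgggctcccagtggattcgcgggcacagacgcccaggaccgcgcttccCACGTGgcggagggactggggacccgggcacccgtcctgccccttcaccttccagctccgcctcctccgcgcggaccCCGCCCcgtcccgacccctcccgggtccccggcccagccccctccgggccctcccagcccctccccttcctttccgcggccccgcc
DKC1, chrX:154762614-154762863, plus strand: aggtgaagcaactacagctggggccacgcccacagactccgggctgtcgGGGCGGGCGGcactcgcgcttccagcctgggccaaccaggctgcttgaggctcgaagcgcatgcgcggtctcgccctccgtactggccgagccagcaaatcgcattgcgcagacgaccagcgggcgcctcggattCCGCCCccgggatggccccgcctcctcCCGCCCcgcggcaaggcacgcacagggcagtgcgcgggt
The TERT window held 1 CACGTG, 163 bases before the start, and 3 GGGCGG on the strand opposite to the gene, of which the nearest, 5 bases before the start, runs into the start and is left in lower case. The DKC1 window held 4 GGGCGG, of which 2 overlap each other on the strand of the gene, and no CACGTG. Of all 35116 RefSeq promoter windows, 7.26% held CACGTG and 45% held GGGCGG. The other 4 matched members held 1 or 2 GGGCGG per entry. The letters CCGGAAG (an ETS core, in 10.3% of windows) were found once in TERF2IP and once in each of the 2 entries of TINF2, and TTTCCCGC (an E2F form, in 1.63% of windows) once in ACD. TTTGGCGC, in 0.652% of windows, was found in no member. A match describes letters and is not a measured binding site.

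In GENCODE release 29 (GRCh38) TERT (ENSG00000164362) lies at chr5:1253147-1295069 on the minus strand and DKC1 (ENSG00000130826) at chrX:154762742-154777689 on the plus strand. TERF1 (ENSG00000147601) lies at chr8:73008864-73048122 on the plus strand. Of the other shelterin genes, 3 lie on chromosome 16: ACD (ENSG00000102977) at chr16:67657512-67660815 (minus), TERF2 (ENSG00000132604) at chr16:69355561-69408571 (minus) and TERF2IP (ENSG00000166848) at chr16:75647786-75761872 (plus). POT1 (ENSG00000128513) lies at chr7:124822386-124929983 (minus) and TINF2 (ENSG00000092330) at chr14:24239643-24242674 (minus). Some reads could belong to overlapping genes: exons of the small RNA genes SNORA56, SNORA36A and MIR664B cover 3.07%, 2.78% and 1.45% of the exon length of DKC1 on its strand, and AC026464.3 covers 1.74% of that of TERF2. On the opposite strand KARS covers 5.21% of TERF2IP, POT1-AS1 1.88% of POT1 and CARMIL2 1.8% of ACD, and the strand setting of the counting is not given in the sources used here.

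Untreated cells gave the starting levels of the 8 genes, as CPM scaled with TMM factors over the 6 untreated libraries of a line (3 per time point). TERT had a mean of 12.7 CPM (SD 2, n = 6) in N87, 7.05 CPM (SD 1.24) in MKN7 and 6.04 CPM (SD 1.17) in MKN1. The N87 libraries, between 10.4 and 15.4 CPM, lay above all others, while MKN7 (5.68 to 9.31 CPM) and MKN1 (4.4 to 7.56 CPM) overlapped. In edgeR's quasi-likelihood test with Benjamini-Hochberg adjustment over all genes, which gives every adjusted p here, TERT was 0.85 log2 units lower in MKN7 than in N87 (adjusted p = 2.42e-06), and MKN1 and MKN7 were not separated (adjusted p = 0.132). The tests between untreated lines compare the means of both times. At 24 h alone MKN1 (4.4, 5.15 and 5.69 CPM) lay below MKN7 (6.94, 6.46 and 9.31 CPM) without overlap, while at 4 h they overlapped.

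Hs746T cells held almost no TERT RNA. Of the 42 Hs746T libraries 13 had 0 TERT counts, 41 had at most 3, and the highest had 7 (EGF+Cet 4 h, replicate 1). The 6 untreated Hs746T libraries held 3 TERT counts together, and 4 of them had none. A count of 0 allows up to 3 counts, or 0.0436 to 0.116 CPM in these libraries. Summed over untreated libraries, the TERT level was 589 times that of Hs746T in MKN1 (95% counting interval 201 to 2860), 655 times in MKN7 (224 to 3180) and 1220 times in N87 (416 to 5900). These intervals cover counting error only, and no treatment effect on TERT was tested in Hs746T because the gene did not pass the filter on low counts there. The other 7 members passed in Hs746T, and all 8 passed in the other lines.

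**Figure D1:**
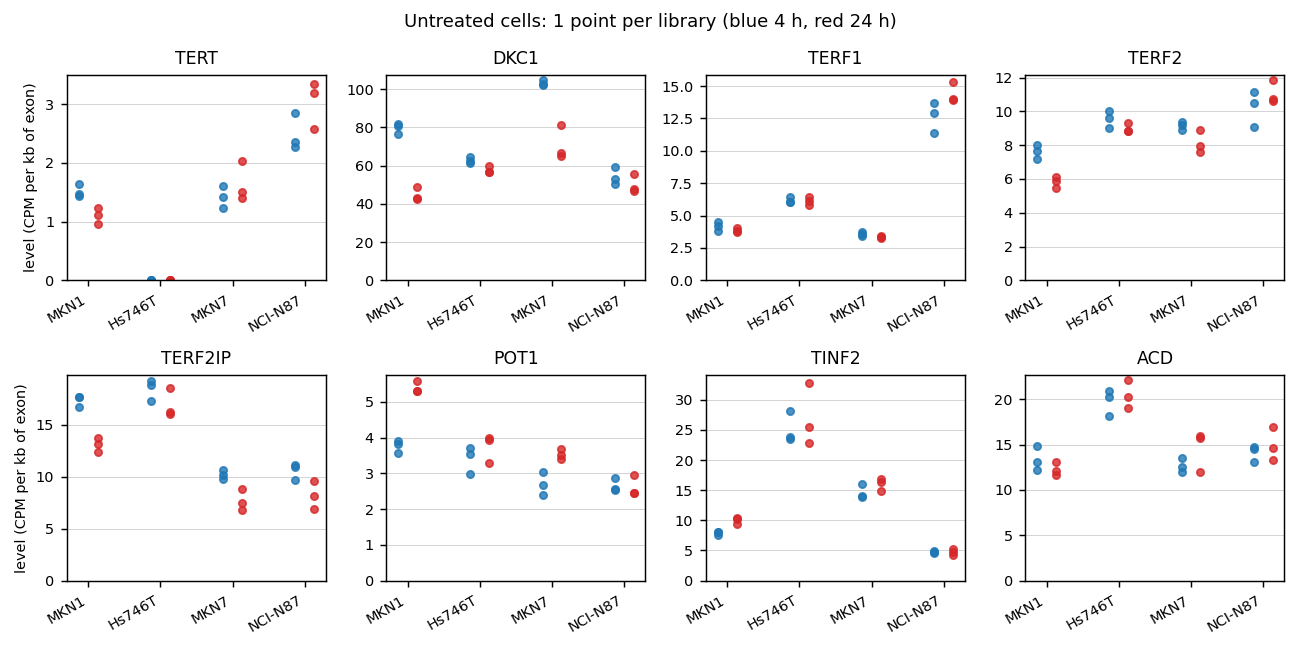
Untreated levels of the 8 genes in the 4 lines, 1 panel per gene, as TMM-scaled CPM per kilobase of exon, so that genes can be set side by side. Points are single libraries (3 at 4 h, 3 at 24 h). Mean DKC1 lies between 52.2 and 87 CPM per kilobase and mean TERT, outside Hs746T, between 1.31 and 2.76 CPM per kilobase.

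DKC1, in contrast to TERT, was abundant in every line. Untreated DKC1 ranged from 272 to 439 CPM in MKN7, from 178 to 344 CPM in MKN1, from 238 to 272 CPM in Hs746T and from 196 to 249 CPM in N87. Over both times MKN7 had the highest mean (366 CPM, SD 77.8, n = 6) and N87 the lowest (219 CPM, SD 20.2). MKN1 and Hs746T between them were not separated in the mean of both times (log2 difference -0.01, adjusted p = 0.938). That mean joins opposite differences without overlap. At 4 h MKN1 was higher (338.4, 343.9 and 321.2 CPM against 262.9, 258.5 and 271.7 CPM in Hs746T). At 24 h MKN1 was lower (178.4, 179.9 and 204.8 CPM against 250.5, 237.7 and 238.6 CPM). Per kilobase of exon, DKC1 exceeded each of the other 7 genes in each line.

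Among the double-strand binders, TERF1 set N87 apart: its 6 untreated libraries lay between 100 and 135 CPM, above Hs746T (51 to 56.7 CPM), MKN1 (32.7 to 39.9 CPM) and MKN7 (28.7 to 32.8 CPM). TERF1 was 1.12 log2 units lower in Hs746T than in N87 (adjusted p = 2.51e-14) and 1.97 lower in MKN7 (adjusted p = 2.44e-18). TERF2 spanned a narrower range. Mean TERF2 was 59.9 CPM in N87, 52.2 CPM in Hs746T, 48.7 CPM in MKN7 and 37.7 CPM in MKN1, and Hs746T and MKN7 were not separated (0.12 log2 units, adjusted p = 0.074), except under scaling by library size alone (0.21, adjusted p = 0.00638). The TERF2 difference between N87 and Hs746T (0.18 log2 units, adjusted p = 0.0113) lost its call without replicate 1 (0.09, adjusted p = 0.295) and without replicate 2 (0.18, adjusted p = 0.0975).

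TINF2, the bridging subunit, had the widest spread between lines among the shelterin genes: Hs746T (62 to 88.7 CPM), MKN7 (37.5 to 45.9 CPM), MKN1 (20.6 to 28.2 CPM) and N87 (11.5 to 14 CPM) did not overlap. Each step of that order passed the test, from Hs746T to MKN7 (0.79 log2 units, adjusted p = 3.81e-09), from MKN7 to MKN1 (0.75, adjusted p = 1.15e-08) and from MKN1 to N87 (0.94, adjusted p = 2.86e-10). So N87 held the most TERF1 and the least TINF2 of the 4 lines.

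ACD was highest in Hs746T (64.9 CPM, SD 4.62, n = 6), and MKN1, MKN7 and N87, with means of 41.4, 43.9 and 46.8 CPM, were not separated from each other (adjusted p between 0.0921 and 0.556), except MKN1 from N87 without replicate 2 (-0.23 against -0.15 log2 units, adjusted p = 0.0331). TERF2IP was higher in Hs746T and MKN1 (means of 59.8 and 51.5 CPM) than in N87 and MKN7 (31.8 and 30.3 CPM). MKN7 and N87 were not separated for TERF2IP (-0.07 log2 units, adjusted p = 0.391), except without replicate 3 (-0.21, adjusted p = 0.0363). The smaller step from Hs746T to MKN1 (0.22, adjusted p = 0.0125) lost its call without replicate 1 (adjusted p = 0.105) or 2 (adjusted p = 0.0519). POT1 followed another order, with means of 27 CPM in MKN1, 21.1 CPM in Hs746T, 18.4 CPM in MKN7 and 15.6 CPM in N87. All 3 POT1 steps were called (0.34, 0.23 and 0.22 log2 units, adjusted p = 0.000502, 0.0125 and 0.0161), but that from Hs746T to MKN7 was not without replicate 2 (adjusted p = 0.0663) or 3 (adjusted p = 0.16), nor that from MKN7 to N87 without replicate 2 (0.14, adjusted p = 0.281). These steps are means of both times. At 4 h mean POT1 was 22.2 CPM in MKN1, 20.1 in Hs746T, 15.9 in MKN7 and 15.7 in N87. At 24 h it was 31.8, 22.1, 20.8 and 15.4 CPM in the same order.

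Most genes differed between the lines, so the counts of members are to be read against that background. Of the 8 members, 7 differed between MKN1 and Hs746T (79.9% of all genes), 6 between MKN1 and MKN7 (75.8%), 7 between MKN1 and N87 (78.7%), 7 between Hs746T and MKN7 (78.2%), 8 between Hs746T and N87 (79.6%) and 6 between MKN7 and N87 (76.8%). These shares of the members are close to those of all genes.

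EGF and cetuximab addressed signalling through EGFR in MKN1. In MKN1 treated with EGF for 24 h, TERT was 12.4 CPM (SD 0.825, n = 3) against 5.08 CPM (SD 0.649) in untreated cells. The EGF libraries had 11.6, 12.3 and 13.3 CPM and the untreated libraries 4.4, 5.15 and 5.69 CPM, so the groups did not overlap. TERT rose 2.48-fold (log2FC 1.31, SE 0.14, adjusted p = 1.23e-08). DKC1 rose from 178, 180 and 205 CPM to 296, 316 and 288 CPM, again without overlap (log2FC 0.69, SE 0.08, adjusted p = 2.18e-08). Of the shelterin genes TERF2 (log2FC 0.41, adjusted p = 1.46e-06), TERF2IP (0.37, adjusted p = 1.94e-05), ACD (0.41, adjusted p = 0.00881) and TERF1 (0.22, adjusted p = 0.035) rose, and POT1 (-0.17, adjusted p = 0.136) and TINF2 (-0.13, adjusted p = 0.227) did not pass. In all, 6 of 8 members changed, all 6 upward, against 35.8% of all genes changed and 17.3% changed upward.

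The smaller EGF effects depended on the fit. TERF1 and ACD lost their calls without replicate 1 (adjusted p = 0.221 and 0.183), TERF1 also without replicate 2 (adjusted p = 0.144), and both under scaling by library size alone (0.02 and 0.20 log2 units), which lowered the median of all genes in this comparison to -0.24. With the replicate number as a block POT1 was called lower (-0.18, adjusted p = 0.0112). Under scaling by library size alone POT1 (-0.37) and TINF2 (-0.33) were both called lower, TINF2 also without replicate 2 (-0.16, adjusted p = 0.0378). No share of all genes is given for the block here or below, so its counts of members have no background beside them.

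Cetuximab alone lowered TERT and DKC1 in MKN1 at 24 h. TERT had 2.47, 3.64 and 2.4 CPM with cetuximab, below each of the untreated libraries (log2FC -0.86, SE 0.15, adjusted p = 0.000304). DKC1 had 145, 144 and 129 CPM, also below each untreated library (log2FC -0.45, adjusted p = 0.000331). Without a block these were 2 of 8 members against 10.8% of all genes, a share that does not apply to the block count that follows. With the replicate number as a block 6 members were called, with ACD (-0.32, adjusted p = 0.00377), TERF1, TERF2 and TINF2 added, without replicate 3 TERT missed the threshold (-0.68, adjusted p = 0.055), which left 1 call, and without replicate 2 TINF2 was called higher (0.37, adjusted p = 0.00168).

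With EGF+Cet for 24 h TERT stayed high at 12, 11.8 and 11.2 CPM, above every untreated library (log2FC against untreated 1.21, adjusted p = 4.82e-07). DKC1 (0.53), TERF2 (0.29) and TERF2IP (0.28) were also called higher, 4 of 8 members against 18.6% of all genes. The count was 7 with the replicate number as a block and 2, TERT and DKC1, without replicate 1. Set directly against EGF, EGF+Cet called 0 of 8 members in edgeR against 0.646% of all genes, with 2 at an unadjusted p under 0.05, and 0 with the block and in DESeq2. The TERT difference of EGF+Cet from EGF was -0.10 log2 units with a 95% confidence interval from -0.38 to 0.18.

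At 4 h these treatments called no member in MKN1 in edgeR: EGF called 0 of 8 against 6.82% of all genes (5 at an unadjusted p under 0.05, 1 call in DESeq2, 2 with the replicate number as a block), cetuximab 0 against 1.43% (4 unadjusted, 0 in DESeq2, 2 with the block), and EGF+Cet 0 against 0.717% (0 by each of these). TERT had 8.85, 10.5 and 8.65 CPM after 4 h of EGF, above the untreated 6.64, 7.56 and 6.79 CPM. The log2FC of 0.43 had an adjusted p of 0.0607, and 0.005 with the block. POT1 was the other member that the block called in EGF at 4 h (-0.25, adjusted p = 0.00271 against 0.108 without it).

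**Figure D2:**
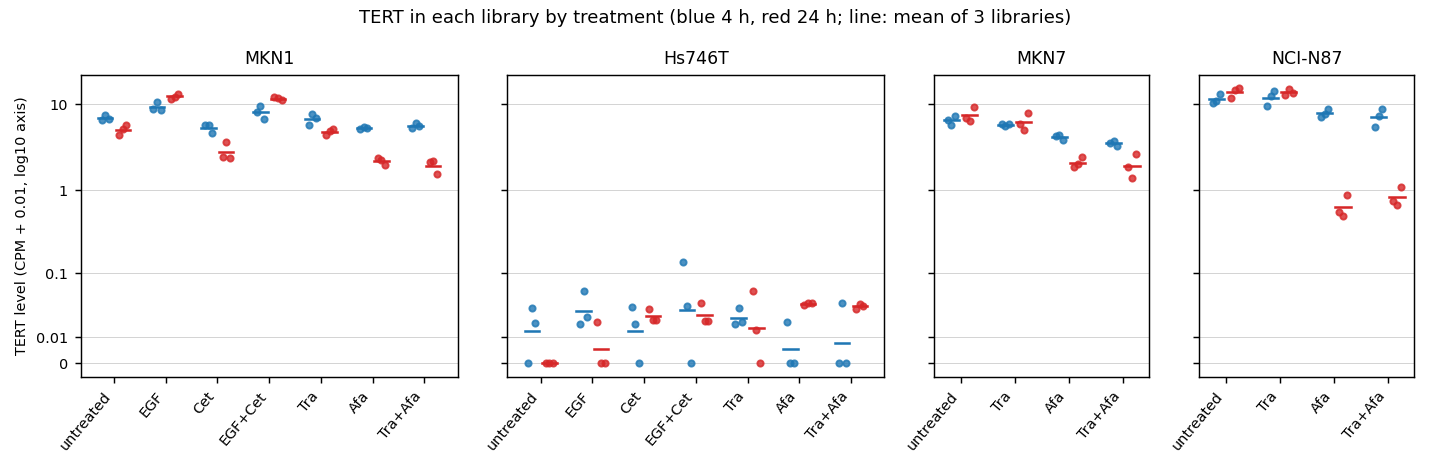
TERT in every library, as TMM-scaled CPM on a log10 axis after adding 0.01, with 1 panel per cell line, treatments along the x axis, 4 h in blue and 24 h in red. Each point is 1 library and each short line the mean of 3. The 3 libraries of N87 with afatinib for 24 h lie between 0.497 and 0.888 CPM and the untreated ones between 11.9 and 15.4 CPM, while no Hs746T library exceeds 0.137 CPM.

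Afatinib for 24 h lowered TERT and DKC1 in MKN1, MKN7 and N87, by most in N87. N87 libraries held 611, 695 and 695 TERT counts untreated (11.9, 14.6 and 15.4 CPM) and 32, 28 and 47 counts with afatinib (0.559, 0.497 and 0.888 CPM). Every treated library lay far below every untreated one. TERT fell 22-fold (log2FC -4.46, SE 0.23, adjusted p = 9.18e-13). DKC1 went from 202, 196 and 234 CPM to 53.5, 56.8 and 71.1 CPM, without overlap, a fall of 3.56-fold (log2FC -1.83, SE 0.14, adjusted p = 1.8e-10).

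The shelterin genes of N87 split after 24 h of afatinib. TERF1 went from 123, 123 and 135 CPM to 68.1, 71 and 82.1 CPM (log2FC -0.82, SE 0.10, adjusted p = 3.42e-07). ACD went from 54.6, 47.3 and 42.8 CPM to 27.6, 23.1 and 25.6 CPM (log2FC -0.96, SE 0.14, adjusted p = 2.9e-06). The treated and untreated libraries did not overlap for either gene, nor for TERF2, which went from 66.7, 60.5 and 59.7 CPM to 52.6, 43.8 and 44 CPM (log2FC -0.44, adjusted p = 0.00466). TINF2 (0.19, adjusted p = 0.129), POT1 (0.16, adjusted p = 0.177) and TERF2IP (-0.08, adjusted p = 0.531) did not pass. So 5 of 8 members changed, all 5 downward, against 62.5% of all genes changed and 31% changed downward.

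TERF2 was the call in N87 at 24 h that rested on the fit: it was lost without replicate 2 (-0.40, adjusted p = 0.0956) and under scaling by library size alone (-0.18, adjusted p = 0.259). That scaling raised the median of all genes to 0.29 and called TINF2 (0.45) and POT1 (0.42) higher, while TERT stayed at -4.21. Without replicate 2 TINF2 was called higher too (0.32, adjusted p = 0.0349). With at least 10 counts in every library POT1 (0.27, adjusted p = 0.0177) and TINF2 (0.30, adjusted p = 0.0185) were called higher, which made 7 calls.

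In MKN7 TERT, DKC1, ACD and TERF2 fell after 24 h of afatinib. TERT went from 6.94, 6.46 and 9.31 CPM to 1.86, 2 and 2.45 CPM, a fall of 3.61-fold without overlap (log2FC -1.85, SE 0.20, adjusted p = 1.86e-07). DKC1 went from 280, 272 and 342 CPM to 139, 143 and 155 CPM, also without overlap (log2FC -1.04, SE 0.09, adjusted p = 2.26e-08). The log2FC was -0.55 for ACD (adjusted p = 0.000348) and -0.49 for TERF2 (adjusted p = 1.2e-05). TERF2 had 31, 33 and 34.2 CPM with afatinib against 42.9, 44.8 and 49.9 CPM without, and ACD 32.1, 28.6 and 35.6 CPM against 50.6, 38.7 and 51.4 CPM, so neither overlapped. These 4 of 8 members, all lower, compare with 51.6% of all genes changed and 25% changed downward. With the replicate number as a block TERF2IP (-0.19, adjusted p = 0.0234) and POT1 (0.19, adjusted p = 0.0116) were called as well, which made 6.

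In MKN1 afatinib for 24 h lowered 4 members and raised 1. TERT had 2.36, 2.27 and 1.99 CPM against 4.4, 5.15 and 5.69 CPM (log2FC -1.22, SE 0.15, adjusted p = 5.42e-07). DKC1 had 127, 134 and 104 CPM against 178, 180 and 205 CPM (log2FC -0.64, SE 0.08, adjusted p = 4.44e-07). Neither gene overlapped with its untreated libraries. TERF2 (-0.23, adjusted p = 0.00427) and TERF2IP (-0.20, adjusted p = 0.0161) fell, while TINF2 rose from 28.2, 27.8 and 25.5 CPM to 35.7, 37.5 and 36 CPM (log2FC 0.40, SE 0.08, adjusted p = 0.000339). These were 5 of 8 members, 4 of them lower, against 25.6% of all genes changed and 13.3% changed downward. With the block ACD (-0.30, adjusted p = 0.00314) and TERF1 (-0.16, adjusted p = 0.0261) were added. Without replicate 3 TERT and DKC1 alone were called, with TINF2 at 0.37 (adjusted p = 0.052), and without replicate 2 ACD was called (-0.31, adjusted p = 0.0233) and TERF2IP was not (adjusted p = 0.0824).

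In Hs746T no member responded by this test. Over the 12 treatment comparisons of this line and the 84 tests of members, log2FC lay between -0.07 and 0.21, the smallest adjusted p was 0.768, and 0 tests had an unadjusted p under 0.05. No gene of any kind was called in these comparisons by that test (0% of all genes), which has no term for the replicate number. Deviations of same-numbered Hs746T replicates correlated at 0.11 to 0.71, and the block's result over all genes is not given here. DESeq2 called 0 members with 0 at an unadjusted p under 0.05, and the fit with the replicate number as a block called 0 with 2. DKC1 had 229, 236 and 233 CPM after 24 h of afatinib and 250, 238 and 239 CPM without, and its log2FC of -0.06 had a 95% confidence interval from -0.18 to 0.05.

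**Figure D3:**
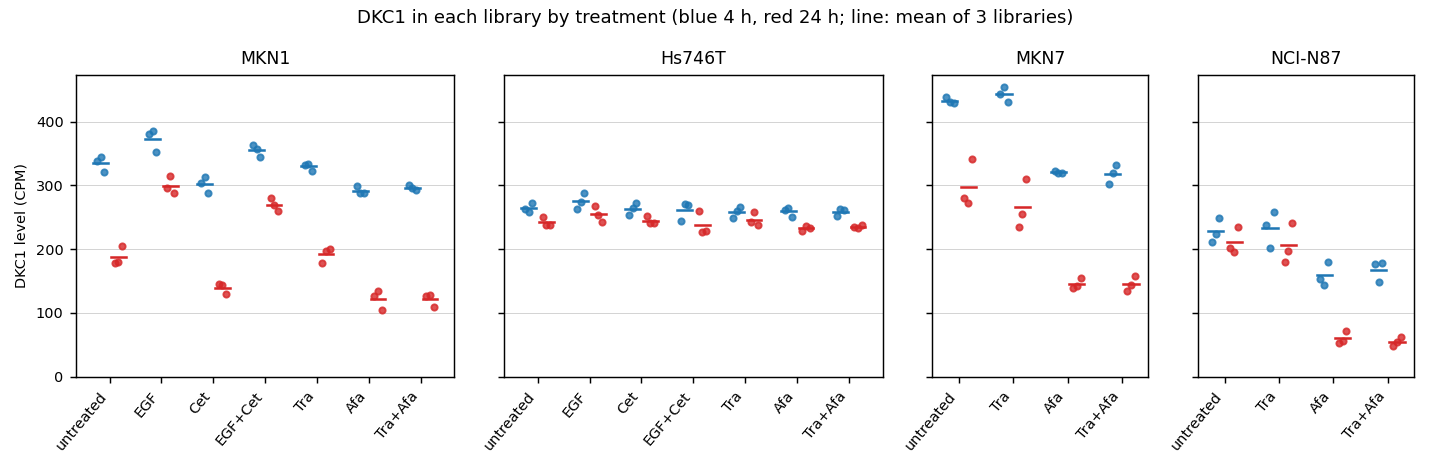
DKC1 in every library, as TMM-scaled CPM on a linear axis from 0, with 1 panel per cell line, treatments along the x axis, 4 h in blue and 24 h in red. Each point is 1 library and each short line the mean of 3. The 42 Hs746T libraries stay between 226 and 288 CPM, while N87 falls from 196 to 234 CPM untreated to 53.5 to 71.1 CPM with afatinib at 24 h.

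At 4 h of afatinib 3 members were called in MKN7, 2 in N87 and none in MKN1, each in the direction seen at 24 h. In MKN7 TERT had 4.32, 4.45 and 3.86 CPM against 6.54, 5.68 and 7.4 CPM (log2FC -0.67, adjusted p = 0.0132). DKC1 had 323, 320 and 320 CPM against 439, 431 and 429 CPM (log2FC -0.47, adjusted p = 0.000705), and TERF2 40.6, 41.1 and 40 CPM against 52.7, 50 and 51.7 CPM (log2FC -0.38, adjusted p = 0.000624). None of the 3 overlapped. These 3 of 8 members compare with 22.2% of all genes. TERT lost its call without replicate 1 (-0.68, adjusted p = 0.146), and POT1 was called with the block (0.25, adjusted p = 0.00437) or without replicate 1 (0.32, adjusted p = 0.0409).

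In N87 at 4 h DKC1 went from 212, 224 and 249 CPM to 154, 144 and 179 CPM (log2FC -0.51, adjusted p = 0.00781) and TERF2 from 62.7, 59.1 and 51 CPM to 49.8, 41.5 and 39.2 CPM (log2FC -0.40, adjusted p = 0.0323), both without overlap. TERT had 7.04, 7.71 and 8.91 CPM against 10.4, 10.9 and 13.1 CPM, likewise without overlap, and its log2FC of -0.53 had an adjusted p of 0.0528. So 2 of 8 members were called against 18.2% of all genes, and the block added TERT (adjusted p = 0.000606). Both calls were fragile: without replicate 1 TERF2 alone was called, without replicate 3 DKC1 alone, and without replicate 2 none. In MKN1 at 4 h afatinib called 0 of 8 members in edgeR against 3.68% of all genes, with 5 at an unadjusted p under 0.05, 2 calls in DESeq2 and 5 with the block, TERT among them (-0.41, adjusted p = 0.0122).

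Whether the afatinib effect differed between lines was tested directly, as the difference of 2 effects. At 24 h the TERT effect in N87 exceeded that in MKN7 by 2.58 log2 units (SE 0.26, adjusted p = 1.51e-09) and that in MKN1 by 3.23 (SE 0.26, adjusted p = 7.06e-12). DKC1 differed in the same pairs, by 0.76 and 1.17 log2 units (adjusted p = 4.37e-05 and 1.18e-08), and TERF1 by 0.68 and 0.64 (adjusted p = 2.49e-05 and 4.66e-05). ACD differed between N87 and MKN1 (0.64, adjusted p = 0.00311). These were 3 of 8 members between MKN7 and N87, where 22.7% of all genes differed, and 4 of 8 between MKN1 and N87, where 29.5% differed.

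Between MKN1 and MKN7 the afatinib effect at 24 h was called different for 0 of 8 members in edgeR against 7.57% of all genes, with 3 at an unadjusted p under 0.05, 2 calls in DESeq2 (TERT and DKC1) and 1 with the block. The TERT effect was 0.65 log2 units weaker in MKN1 (95% confidence interval 0.14 to 1.15, adjusted p = 0.112) and the DKC1 effect 0.41 weaker (adjusted p = 0.0557, and 0.035 with the block). Against Hs746T, 3 of the 7 testable members differed in MKN7 (19.4% of all genes), 4 in N87 (37.1%) and 1, DKC1, in MKN1 (3.85%). The DKC1 effect in MKN1 minus that in Hs746T was -0.56 log2 units (adjusted p = 0.0124), and the effect in Hs746T minus that in MKN7 or N87 was 0.97 (adjusted p = 2.58e-06) or 1.74 (adjusted p = 4.26e-13). The DKC1 difference of MKN1 was not called when any single replicate was left out (adjusted p between 0.0666 and 0.185). Other differences that 1 replicate decided were those of ACD between Hs746T and MKN7 (adjusted p = 0.12 without replicate 1, 0.243 without replicate 3, and 0.0655 under scaling by library size alone), of TERF2 between Hs746T and MKN7 (0.0655 without 2, 0.0763 without 3) or N87 (0.084 without 2, 0.119 without 3), and of ACD between MKN1 and N87 (0.0688 without 1). At 4 h DKC1 also differed between Hs746T and N87 (0.50, adjusted p = 0.0182, 1 of 7 members against 6.53% of all genes), but not without replicate 1 (adjusted p = 0.177) or 2 (adjusted p = 0.458). The DKC1 difference of Hs746T minus MKN7 at 4 h (0.41, adjusted p = 0.0726) was called with the block (adjusted p = 0.0486), in DESeq2 (0.46, adjusted p = 0.0072), with at least 10 counts in every library (adjusted p = 0.0156), under scaling by library size alone (adjusted p = 0.0492) and without replicate 3 (adjusted p = 0.0152).

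Trastuzumab alone left the 8 genes without a call. Over the 8 comparisons and 62 tests in the 4 lines, log2FC lay between -0.26 and 0.14. No gene of any kind was called in the fit without a block (0% of all genes). An unadjusted p under 0.05 was met by 0 members in edgeR or DESeq2 and by 1 with the replicate number as a block, which was not called. In N87 at 24 h the TERT log2FC with trastuzumab was -0.03 with a 95% confidence interval from -0.42 to 0.36. The lowest value, -0.26 for TERT in MKN7 at 24 h, had an interval from -0.65 to 0.12.

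Adding trastuzumab to afatinib also gave no call. Tra+Afa set against Afa at 24 h in MKN1, MKN7 and N87 called 0 of 24 member tests in edgeR, with 0 at an unadjusted p under 0.05. DESeq2 and the block also called 0 of them, and the fit without a block called 0% of all genes. The log2FC of Tra+Afa against Afa lay between -0.18 and 0.38, the latter for TERT in N87 (95% confidence interval -0.16 to 0.92). Tra+Afa against untreated cells therefore repeated the afatinib values at 24 h: TERT was at -1.40 in MKN1, -1.94 in MKN7 and -4.08 in N87, and DKC1 at -0.66, -1.04 and -1.97. The calls were 6 of 8 members in MKN1 (26.8% of all genes), with ACD (-0.38, adjusted p = 0.0195) beside the 5 of afatinib, 4 in MKN7 (51.9%) and 5 in N87 (64.7%). The ACD call in MKN1 was lost without replicate 1 (adjusted p = 0.0733), 2 (0.0536) or 3 (0.0838) and under scaling by library size alone (-0.25, adjusted p = 0.0637). In MKN1 2 calls were left without replicate 3, and in MKN7 6 were made with the block. At 4 h Tra+Afa called 1 member in MKN1 (3.95%; TERF2IP, -0.21, adjusted p = 0.0431), 3 in MKN7 (23.4%) and 3 in N87 (17.3%), where TERT (-0.67, adjusted p = 0.0166) passed. The single MKN1 call was lost when any replicate was left out, and the block added TERT (-0.33, adjusted p = 0.0494). TERT in MKN7 at 4 h (-0.92) missed the threshold without replicate 1 (adjusted p = 0.0539). With the block MKN7 had 5 calls at 4 h, with POT1 (0.28, adjusted p = 0.0017) and TERF2IP (-0.25, adjusted p = 0.00671) added. In N87 at 4 h, TERT, DKC1 and TERF2 each lost the call without replicate 2 (adjusted p = 0.14, 0.238 and 0.357).

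**Figure D4:**
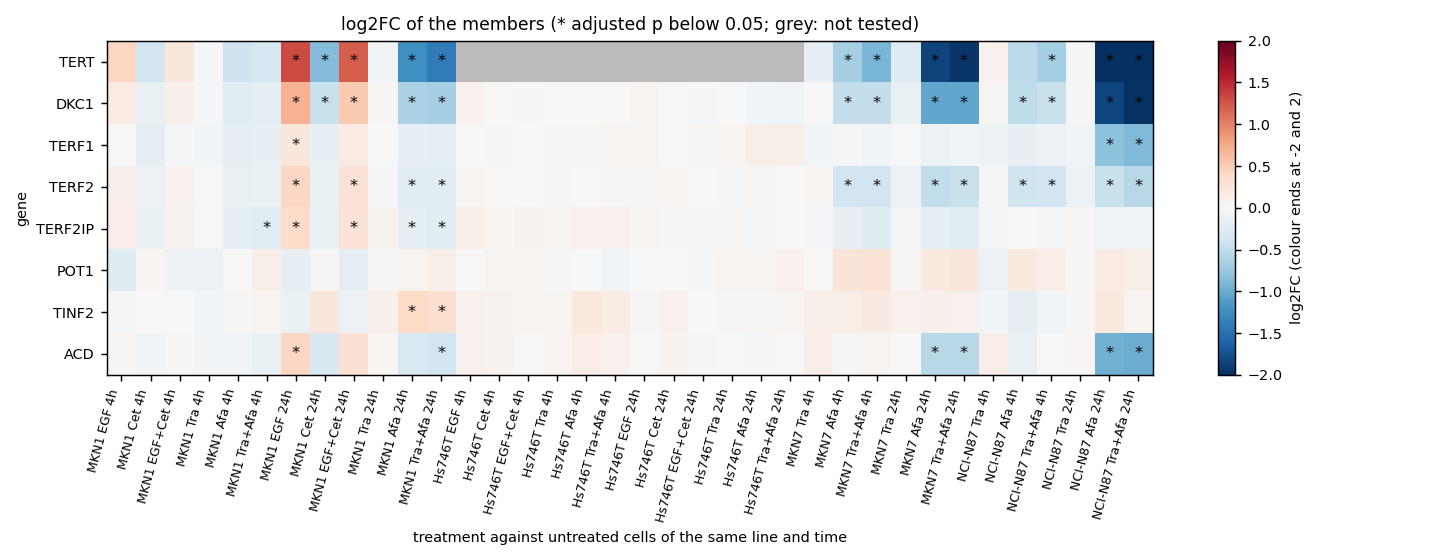
Log2FC against untreated cells of the same line and time for the 8 genes (rows) in each treatment comparison (columns), from blue for lower to red for higher with the colour scale ending at -2 and 2. A star marks adjusted p below 0.05 and grey marks TERT in Hs746T, which was not tested. TERT and DKC1 carry the deepest colours, from 1.31 (TERT, MKN1, EGF, 24 h) to -4.46 (TERT, N87, Afa, 24 h), and the Hs746T block has no star.

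Untreated cells also changed between 4 h and 24 h, with no treatment. In MKN1 DKC1 went from 338, 344 and 321 CPM at 4 h to 178, 180 and 205 CPM at 24 h, without overlap (log2FC -0.85, adjusted p = 5.04e-10). POT1 went the other way, from 21, 23 and 22.6 CPM to 31.2, 33 and 31.3 CPM (log2FC 0.50, adjusted p = 5.6e-05), and TINF2 rose as well (0.32, adjusted p = 0.0023). TERT fell by 0.48 on the log2 scale (adjusted p = 0.00797), TERF2 by 0.41 and TERF2IP by 0.43. In all 6 of 8 members changed in MKN1, against 34.1% of all genes. Without replicate 1 TERT (-0.43, adjusted p = 0.134) and TINF2 (0.31, adjusted p = 0.0747) were not called, nor was TERT under scaling by library size alone (-0.31, adjusted p = 0.0919), which moved the median of all genes to 0.21.

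In MKN7 3 of 8 members changed between 4 h and 24 h against 16.4% of all genes: DKC1 (-0.57, adjusted p = 0.000458), TERF2IP (-0.44, adjusted p = 0.00526) and POT1 (0.35, adjusted p = 0.0371). Without replicate 1 or replicate 2 DKC1 alone was called, without replicate 3 POT1 was not (adjusted p = 0.193), and the block called 5. In N87 0 of 8 were called in edgeR against 0.267% of all genes, with 1 at an unadjusted p under 0.05, and TERF2IP was called in DESeq2 and with the block (-0.37, adjusted p = 0.00339). In Hs746T 0 of 7 were called against 1.48% of all genes, with 0 at an unadjusted p under 0.05, 0 calls in DESeq2 and 0 with the block. DKC1 had 250, 238 and 239 CPM at 24 h in Hs746T, close to its level across all 42 libraries (226 to 288 CPM).

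Genes around telomerase were described through 4 further lists. Of the other genes of the telomerase particle and its assembly (11 genes, among them NHP2, NOP10, GAR1, WRAP53, NAF1, RUVBL1 and RUVBL2), 10 were tested in each line. TERC, the RNA subunit, was not tested, as poly(A) libraries barely capture it. After 24 h of afatinib 9 of these 10 fell and 0 rose in N87 (median log2FC -0.98), 8 fell in MKN7 (median -0.52), 5 fell in MKN1 (median -0.25) and none changed in Hs746T (median 0.05). Of all genes, 31% fell in N87, 25% in MKN7, 13.3% in MKN1 and 0% in Hs746T. EGF for 24 h raised 7 of 10 in MKN1 and lowered 0 (median 0.45), where 17.3% of all genes rose. The median over all genes tested lay between -0.05 and 0.05 in these fits, and the medians of the 8 members were -0.63 in N87, -0.34 in MKN7, -0.21 in MKN1 with afatinib and 0.39 with EGF.

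The largest falls of that list after afatinib were those of assembly factors and of GAR1, a protein of the mature particle. In N87 NAF1, the assembly chaperone that GAR1 replaces, had a log2FC of -1.26, GAR1 -1.18 and RUVBL1, an ATPase of the assembly complex, -1.13. In MKN7 the order was RUVBL1 (-0.90), GAR1 (-0.76) and NAF1 (-0.64), and in MKN1 GAR1 (-0.62), RUVBL1 (-0.60) and RUVBL2 (-0.51). GAR1 and RUVBL1 were thus among the 3 largest falls in each of these 3 lines.

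The CST complex and telomere replication genes (12 genes, 10 or 11 tested) also fell with afatinib at 24 h: 9 fell and 1 rose in N87 (median -1.40), 7 fell and 0 rose in MKN7 (median -0.58), and 4 fell and 1 rose in MKN1 (median -0.30), beside 31%, 25% and 13.3% of all genes that fell. The nuclease gene DCLRE1B (-2.34), the helicase gene BLM (-2.28) and POLA1, of DNA polymerase alpha (-1.86), led in N87, and the primase gene PRIM1 (-0.92), DCLRE1B (-0.81) and the helicase gene RTEL1 (-0.77) in MKN7. In MKN1 BLM (-0.44) and POLA1 (-0.38) fell and CTC1, a subunit of CST itself, rose (0.43). With EGF for 24 h in MKN1 1 of 11 rose and 1 fell (median 0.12), where 17.3% of all genes rose and 35.8% changed. After 4 h of EGF 0 of 11 were called.

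Shelterin partners and telomere chromatin genes (13 genes, 12 tested) had medians near 0. With afatinib at 24 h 3 fell and 2 rose in N87 (median -0.04), 4 fell in MKN7 (median -0.07) and 1, NBN of the MRE11 complex, fell in MKN1 (-0.24; median of the list -0.07). These counts are below the shares of all genes changed in N87 (62.5%), MKN7 (51.6%) and MKN1 (25.6%). PINX1 of this list and TEN1 of the CST list had 0 counts in every untreated library. Mean untreated FEN1, also of the CST list, lay between 0.126 CPM (N87) and 0.445 CPM (Hs746T). The counter is not given in the sources used here, so such low counts are not read as absence of expression. RIF1, a replication timing factor, had the largest fall in N87 (-1.60), followed by NBN (-0.61) and MRE11 (-0.59), and also in MKN7 (-0.56), followed by the histone chaperone DAXX (-0.43) and SMCHD1 (-0.41). With EGF for 24 h in MKN1 1 of 12 rose and 1 fell (median 0.00), where 17.3% of all genes rose and 35.8% changed. After 4 h of EGF 0 of 12 were called.

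Known regulators of TERT transcription (13 genes, 12 or 13 tested) had medians near 0. The list joins MYC with genes that act against it, such as MXD4, so such a median does not mean that the regulators stayed unchanged. With afatinib at 24 h 4 rose and 2 fell in N87 (median 0.03), 1 rose and 6 fell in MKN7 (median -0.07), and 0 rose and 3 fell in MKN1 (median 0.00). In all, 6 of 12 changed in N87, 7 of 13 in MKN7 and 3 of 13 in MKN1, close to or below the shares of all genes (62.5%, 51.6% and 25.6%). MYC, which binds CACGTG with MAX, fell in each of the 3 lines, by 1.99 on the log2 scale in N87 (adjusted p = 5.02e-11), by 1.44 in MKN7 (adjusted p = 5.07e-09) and by 1.34 in MKN1 (adjusted p = 7.72e-05). In Hs746T MYC was at -0.16 (adjusted p = 1). MXD4, which competes with MYC for MAX, rose in N87 (2.56), E2F1 fell in N87 (-2.41) and MKN1 (-0.33), GABPB1 fell in MKN1 (-0.15), and ETS1 (-1.87) and KLF4 (-1.31) fell in MKN7. The part of any of these in the change of TERT was not tested.

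MYC was called at 4 h of afatinib in each of these 3 lines. With afatinib for 4 h MYC was at -1.81 log2 units in MKN1, -1.86 in MKN7 and -2.11 in N87, each called, and at 0.05 in Hs746T (adjusted p = 0.977). TERT at 4 h was at -0.42 in MKN1, -0.67 in MKN7 and -0.53 in N87, of which the one in MKN7 was called, though not without replicate 1 (adjusted p = 0.146). With the replicate number as a block TERT was also called in MKN1 (adjusted p = 0.0122) and N87 (adjusted p = 0.000606), as it was in DESeq2 (adjusted p = 0.0465 and 0.0198). In N87 it passed as well with at least 10 counts in every library (adjusted p = 0.043), with no filter (0.044) and in a fit of only the compared groups (0.0231). EGF raised MYC in MKN1 by 1.32 at 4 h (adjusted p = 0.000113) and 1.34 at 24 h. Untreated MYC was highest in MKN7 (467 CPM), followed by N87 (381 CPM), Hs746T (207 CPM) and MKN1 (36.2 CPM). Any link of MYC to TERT, over time or between lines, was not tested.

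**Figure D5:**
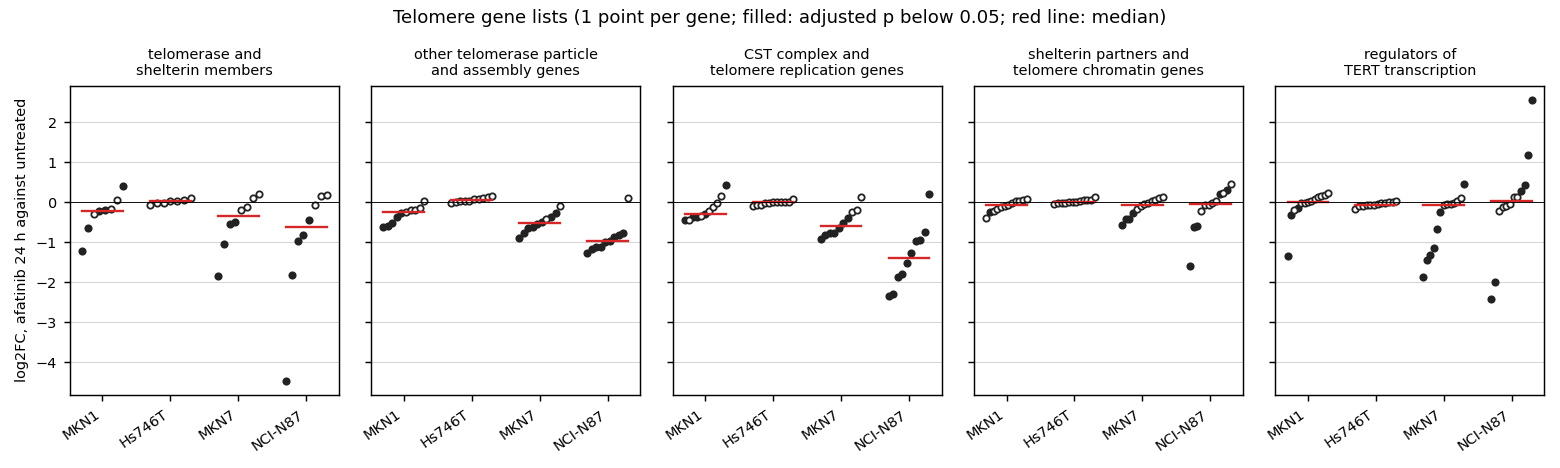
Log2FC after 24 h of afatinib for the genes of 5 lists (the 8 members and the 4 further lists) in each of the 4 lines. Filled points have adjusted p below 0.05, open points do not, and a red line gives the median of the list. The N87 medians are -0.63 for the members, -0.98 for the telomerase particle genes and -1.40 for the CST and replication genes, and no Hs746T point is filled.

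Across conditions, each member was set beside all other tested genes by Pearson's r of condition means, centred within each line. For TERT this covered 30 conditions of MKN1, MKN7 and N87 and 16364 genes, and for the other members 44 conditions of 4 lines and 15654 genes. Conditions of one line share untreated libraries and scaling, so r is a description only. The centred values were not brought to a common spread, so conditions with large changes weigh most in r. TERT was most like TIPIN, FGFR4 and SLC25A13 (each 0.98), and DKC1 most like NCL (1.00), the gene of nucleolin, EIF1AX and PSME3 (each 0.99). TERF1 was most like SLC25A13, TIPIN and CAPRIN1 (each 0.92). Under scaling by library size alone TERF1 kept 0 of its 3 genes, with RNGTT (0.83), ESYT1 (0.82) and CTDSPL (0.81) in their place, and TERT kept 1 of 3.

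For TERF2 the leading genes were RCL1, ZNF696 (each 0.97) and RPIA (0.96), for ACD they were EIF3I, USP39 and CSTF2 (each 0.97), and for TERF2IP they were KLHL21, LRRFIP2 (each 0.94) and FXR2 (0.93). For POT1 they were PJA2 (0.96), MED20 and CPPED1 (each 0.95), and for TINF2 CC2D2A, NDUFB5 (each 0.95) and TRPT1 (0.94). Of these 24 leading genes, 15 were also among the 3 leading genes under scaling by library size alone. Between members, over the 30 conditions, TERT had r = 0.97 with ACD, 0.93 with TERF1, 0.9 with DKC1, 0.7 with TERF2 and 0.61 with TERF2IP, and -0.48 with POT1 and -0.56 with TINF2. Under scaling by library size alone these were 0.93, 0.7, 0.87, 0.47, 0.3, -0.6 and -0.68. For TERT the largest changes were those of N87 with Afa (-4.46) and Tra+Afa (-4.08) at 24 h. TERF1 was called after 24 h of afatinib in N87 (-0.82) but not in MKN1 or MKN7. How far these r values rest on N87 at 24 h was not tested.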

How the data were processed

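From purified mRNA the authors made strand-preserving libraries for paired-end sequencing, and they deposited whole-number raw counts by Ensembl identifier, 1 table per library. The submitters' processing notes name Trim Galore, STAR and hg38, and the counter and its strand setting are not given in the sources used here. Samples were grouped by the labels of line, treatment and time. Symbols came from GENCODE release 29, which lacks 8404 of the identifiers (0.0422% of counts). Among 132 pairs of replicates 0 were identical, and squared differences were at least 6.39 times the counting noise.

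edgeR 4.0.16 was run under R 4.3.3 with TMM factors, glmQLFit and glmQLFTest, on genes kept by filterByExpr (min.count 10, min.total.count 15). The libraries of a line were fitted together, or those of all lines for comparisons between lines. The fits tested 19815 genes in MKN1, 18667 in Hs746T, 18483 in MKN7 and 19078 in N87. Changed means a Benjamini-Hochberg adjusted p below 0.05 over all genes of the comparison, and SE is log2FC over the root of F. The steps were run on simulated counts for MKN7 and N87, with 200 changed genes and independent replicates. These data have paired replicates and more changed genes at 24 h of afatinib, so the simulation checks the steps only. Same-numbered replicates deviated together (every correlation above 0.1) in 51 of 52 comparisons within lines, the exception being Tra+Afa against Afa in MKN1 at 24 h, so the numbers pair the samples. The fit reported has no replicate term and so ignores this pairing, and calls that the replicate block adds are given beside it. The p-values and missing calls of the fit reported, also those over all genes, hold for an unpaired fit only. Shares of all genes come from the fit reported, and none is given for the block. The sample numbers of the labels form 1 series of 65 and 1 of 67 libraries, and each of the 24 sets of line, time and replicate lies in 1 series. Alternatives were DESeq2 1.42.0, scaling by library size alone, other filters, a fit of only the compared groups, a block for the replicate number, and the omission of single replicates.

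The members and lists were chosen with earlier results of these data known. Named from each further list were MYC and up to 3 changed genes with the largest absolute log2FC after 24 h of afatinib, and the 3 genes most like each member. Plots were made in matplotlib 3.10.9 (Python 3.11.15).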

Additional observations from a re-analysis of the deposited data

Results flagged for a closer look

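Of 90 differences of the afatinib effect between 2 lines that could be tested on the members (TERT in Hs746T left out), 16 passed, over 5 members, as interaction contrasts in edgeR's quasi-likelihood test with Benjamini-Hochberg adjustment over all genes. At 24 h between 3.85% (MKN1 minus Hs746T) and 37.1% (Hs746T minus N87) of all genes differed in the 6 pairs of lines. Each value is the log2FC in the line named first minus that in the line named second, from 3 treated and 3 untreated libraries of each line. For TERT at 24 h, MKN1 minus N87 was 3.23 (SE 0.26) and MKN7 minus N87 2.58 (SE 0.26). For DKC1 at 24 h, MKN1 minus N87 was 1.17, MKN7 minus N87 0.76, Hs746T minus N87 1.74, Hs746T minus MKN7 0.97 and MKN1 minus Hs746T -0.56, each with an SE of 0.14. At 4 h Hs746T minus N87 was 0.50 for DKC1 (adjusted p = 0.0182). For TERF1 at 24 h, MKN1 minus N87 was 0.64, MKN7 minus N87 0.68 and Hs746T minus N87 0.89, each with an SE of 0.12. For ACD at 24 h, MKN1 minus N87 was 0.64, Hs746T minus N87 0.90 and Hs746T minus MKN7 0.52, each with an SE of 0.17. For TERF2 at 24 h, Hs746T minus MKN7 was 0.52 and Hs746T minus N87 0.45, each with an SE of 0.12. The latter fell to 0.22 under scaling by library size alone (adjusted p = 0.199) and to 0.25 with at least 10 counts in every library (adjusted p = 0.0953). TERF2IP, POT1 and TINF2 had no such difference under this fit. For TINF2 at 24 h, Hs746T minus N87 was -0.20, and it was called with at least 10 counts in every library (-0.40, adjusted p = 0.0282) and under scaling by library size alone (-0.42, adjusted p = 0.0217). The lines also differ in medium (DMEM for Hs746T, RPMI for the others), which cannot be told apart from the line for Hs746T.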

How the results depend on the processing

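No member's log2FC changed sign among called values under any alternative run. Over all treatment, combination and time comparisons within lines, 62 member tests were called, and 94 with the replicate block, which pairs same-numbered samples. In the fit reported, the share of all genes called against untreated cells ran from 0% to 64.7% by comparison. The share called with the block is not given here, so a rise in block calls does not single out the members. For MKN1 the replicate block gave 5 calls against 0 for afatinib at 4 h, 2 against 0 for EGF at 4 h, 6 against 2 for cetuximab at 24 h and 7 against 4 for EGF+Cet at 24 h. It gave 5 against 3 for MKN7 at 24 h against 4 h and 1 against 0 for N87 at 24 h against 4 h. DESeq2 gave 2 for afatinib and 1 for EGF in MKN1 at 4 h and 1 for N87 at 24 h against 4 h. A minimum of 10 counts in every library gave 1 for EGF at 4 h and 7 against 5 for afatinib in N87 at 24 h. Scaling by library size alone gave 1 for EGF at 4 h, 3 against 6 for Tra+Afa in MKN1 at 24 h, 1 against 2 for afatinib in N87 at 4 h, and shared 15 of the 24 genes most like a member. No filter gave 3 against 5 for afatinib in MKN1 at 24 h, as did a fit of only the compared groups, which gave 2 for EGF+Cet at 24 h and 1 for MKN7 at 24 h against 4 h. Leaving out 1 replicate gave these ranges of calls: 2 to 5 for afatinib, 1 to 3 for cetuximab, 2 to 5 for EGF+Cet and 2 to 4 for Tra+Afa in MKN1 at 24 h, 1 to 3 for MKN7 at 24 h against 4 h, 0 to 1 for afatinib in N87 at 4 h, and 48 to 54 over all comparisons within lines. The number of called differences stayed within 1.5 times under every alternative, from 35 to 41 between untreated lines (41 in the fit reported) and from 12 to 20 of the afatinib effect (16), while single differences moved further. TERF2 in untreated Hs746T against N87 went from -0.18 to -0.09 without replicate 1, POT1 in MKN7 against N87 from 0.22 to 0.14 without replicate 2, and the afatinib effect on TERF2 in Hs746T minus N87 from 0.45 to 0.22 under scaling by library size alone, and each lost its call. TERT had 28 to 47 counts in N87 with 24 h of afatinib and at most 7 in Hs746T, which limits the precision there.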
